A study of Mus musculus with 5 samples.

Results

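The genes described here encode the TREM receptors of mouse myeloid cells and the signalling chains they use: Trem1, Trem2, Trem3, Treml1, Treml2, Treml4, Tyrobp and Hcst. They were chosen by name, as members of one receptor family with its adaptors, and all 8 were found among the 19938 genes that a probe set with a single gene symbol names. Each is read by 1 probe set. RNA came from 5 cell populations sorted from the bone marrow of untreated wild-type C57Bl/6 mice, with 1 expression array per population. Each gate took lineage-negative (Lin-) cells carrying CD115, the receptor for colony-stimulating factor 1. The monocyte-dendritic cell progenitor (MDP) was further gated as CD117+ CD135+, the common dendritic cell progenitor (CDP) as CD117int CD135+ and the common monocyte progenitor (cMoP) as CD117+ CD135-. Classical monocytes were Ly6C+ TremL4- and nonclassical monocytes Ly6C- TremL4+, so the protein of a member, Treml4, defined the monocyte gates. The labels do not say whether cells of several mice were pooled. With 1 array per population no difference has a replicate check, and no SD, standard error or p-value is given.

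TREM proteins are surface receptors of the immunoglobulin superfamily. The activating ones have no signalling motif of their own and pair, through a charged residue in the membrane, with the chain DAP12, the product of Tyrobp. Phosphorylated DAP12 recruits the kinase Syk through its immunoreceptor tyrosine-based activation motif (ITAM), whereas DAP10, the product of Hcst, recruits phosphoinositide 3-kinase. TREM-1 is known for amplifying inflammatory responses of neutrophils and monocytes, TREM-2 for sensing lipids and lipoproteins in macrophages, and TLT-1, the product of Treml1, for its place in platelet granules.

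The 6 receptor genes lie in 1 run on chromosome 17, in the order Trem1, Trem3, Treml4, Treml2, Trem2 and Treml1, and Tyrobp and Hcst are direct neighbours on chromosome 7. RefSeq promoter windows (build GRCm38.p6) matched 5 of the 8 members by symbol, Trem1, Trem2, Treml1, Treml4 and Hcst. The 250 bases before the start are printed for Treml4 and Trem1, the members with the largest positive differences between nonclassical and classical monocytes as deposited, and for the adaptor gene Hcst, which was highest in the same cells. Capitals mark matches to GAGGAA, the core of the site of PU.1, or to its reverse complement TTCCTC.
Treml4, chr17:48264045-48264294, plus strand: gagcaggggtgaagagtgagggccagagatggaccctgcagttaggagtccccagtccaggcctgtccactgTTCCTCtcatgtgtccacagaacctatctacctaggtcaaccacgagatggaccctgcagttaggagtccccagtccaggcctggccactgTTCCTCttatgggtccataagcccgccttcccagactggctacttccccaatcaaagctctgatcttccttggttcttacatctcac
Trem1, chr17:48232489-48232738, plus strand: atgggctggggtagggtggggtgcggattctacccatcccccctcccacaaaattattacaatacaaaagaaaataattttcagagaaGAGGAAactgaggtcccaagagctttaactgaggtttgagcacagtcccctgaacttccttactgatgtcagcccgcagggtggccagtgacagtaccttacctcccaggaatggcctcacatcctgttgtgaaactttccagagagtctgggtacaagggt
Hcst, chr7:30419855-30420104, minus strand: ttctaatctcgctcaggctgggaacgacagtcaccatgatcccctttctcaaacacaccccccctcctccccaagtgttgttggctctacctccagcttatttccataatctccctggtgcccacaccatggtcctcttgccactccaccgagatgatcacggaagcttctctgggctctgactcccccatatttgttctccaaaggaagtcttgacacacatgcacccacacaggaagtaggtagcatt
The Treml4 window held 2 matches, both as TTCCTC, and those of Trem1 and Trem2 held 1 each. The windows of Treml1 and Hcst held 0. A match was present in 23.3% of the 32851 windows of this length in the table, so its presence is common. Searches on both strands for TTGCNNAA (C/EBP), TGTGGT (RUNX) and TATAAA (the box bound by TBP) gave 0 matches in all 5 windows, where 9.56%, 14.05% and 12.4% of all windows held 1 or more. The Treml4 window also carries an exact direct repeat of 40 bases, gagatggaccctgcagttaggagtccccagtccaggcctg, whose copies begin 225 and 134 bases before the start, and a TTCCTC follows each copy. An exact direct repeat at least as long was present in 90 windows (0.274%). PU.1 itself is encoded by Spi1, whose log2 values were 10.16 in MDP, 10.39 in CDP, 10.68 in cMoP, 11.10 in classical and 11.24 in nonclassical monocytes. It was thus well above the floor on every array and differed by less than 1 log2 unit between neighbouring stages.

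Values are on a log2 scale, so 1 log2 unit is 2-fold. A gene was called higher or lower in a comparison where the log2 difference was 1 or more and the higher array lay at or above a floor of 6.27, the median of all named genes over the 5 arrays. Where the lower value lay under the floor, the fold is given as a bound with that value set to the floor. As an alternative chosen after seeing the data, calls were repeated with every value under the floor set to the floor, which ended the call of Trem1 and kept the other 6 calls of members. The array medians over all probe sets ran from 6.02 to 6.16, and between 9831 and 10167 genes lay at or above the floor on each array. Of all 19938 genes, 11058 did so on at least 1 array, the share beside which counts of genes under the floor are read. In 46.6% of probe sets 2 or more arrays hold exactly the same value, a feature of the deposited table that can hide small differences. Because the samples are bulk RNA, fewer expressing cells and less RNA per cell cannot be told apart. Sort genes were read as a check of the labels, as far as they were measured. Ly6c1 and Ly6c2 were not among the genes named by a probe set with a single symbol, so Ly6C could not be checked. Kit (CD117) was at 10.11, 8.16 and 9.37 in MDP, CDP and cMoP and at 5.79 and 5.61 in classical and nonclassical monocytes, Flt3 (CD135) was at 10.75 and 10.74 in MDP and CDP and at 6.40 in cMoP, and Csf1r (CD115) lay between 10.03 and 12.20 on all arrays. Of 12 nonclassical monocyte markers 10 were higher and 0 lower in nonclassical than in classical monocytes, and of 8 classical markers 5 were lower and 0 higher.

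Treml4 encodes a receptor that binds dying cells and pairs with DAP12. Its log2 value was 11.78 in nonclassical monocytes, against 6.18 in classical monocytes, 5.72 in cMoP, 5.42 in CDP and 5.02 in MDP. Only the nonclassical array lay above the floor, and the other 4 values all lay under it. The deposited values of the monocyte arrays differed by 5.60. With the classical value set to the floor the difference was 5.51, at least 45.6-fold. The gate selected on the TremL4 protein, so this value checks the label and is not an independent result. Among the 4 arrays under the floor the values ran in the order classical monocyte, cMoP, CDP and MDP, with steps of 0.47, 0.30 and 0.40, which dim signal does not allow to be ordered.

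Trem3, an activating DAP12-coupled receptor of mouse myeloid cells, showed the widest spread of the members that did not define a gate. Its log2 value was 9.68 in cMoP, 9.07 in nonclassical monocytes, 8.38 in classical monocytes, 7.61 in MDP and 6.01 in CDP, the last under the floor. The 3 arrays of the monocyte path after MDP all lay above MDP, while CDP lay below it. Trem3 was 4.21-fold higher in cMoP than in MDP (2.07) and at least 2.54-fold lower in CDP than in MDP (-1.34 with the CDP value set to the floor, -1.60 as deposited). Between the committed progenitors Trem3 was at least 10.7-fold higher in cMoP (3.42 with the CDP value set to the floor, 3.67 as deposited). With all values under the floor treated in this way, that ranked 6 among the positive differences of 10441 genes past the floor. It was then 2.46-fold lower in classical monocytes than in cMoP (-1.30), and the nonclassical array was not called against the classical one, at 0.69. In the order of its levels only the last step, from MDP to CDP, exceeded 1 log2 unit. The other steps were 0.62 between cMoP and nonclassical, 0.69 between the monocyte arrays and 0.77 between classical monocytes and MDP.

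Trem1 was dim. Its log2 value was 6.94 in nonclassical monocytes, 6.12 in cMoP, 5.65 in MDP, 5.48 in classical monocytes and 5.12 in CDP. The nonclassical array alone lay above the floor. As deposited it lay 1.46 above the classical array, which the rule calls higher. That call rests on a classical value under the floor: with the value set to the floor the difference was 0.67, at least 1.59-fold, and no call was made. Against CDP the cMoP array was higher by 1.01, but both values lay under the floor and no call was made. The 4 arrays under the floor are given no order.

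Trem2, the lipid-sensing receptor of macrophages, was above the floor on all arrays and was not called in any comparison. Its log2 value was 8.09 in classical monocytes, 7.41 in CDP, in cMoP and in nonclassical monocytes, and 6.85 in MDP. The 3 middle values are identical to the last digit, so differences among these arrays cannot be read. The classical array lay 0.68 above them and MDP 0.57 below them. From MDP to classical monocytes the whole range was 1.24.

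Treml2 encodes TLT-2, a receptor of B cells, neutrophils and macrophages that is not known to signal through DAP12. Its log2 value was 8.79 in MDP, 8.72 in cMoP, 8.68 in CDP and 8.55 in classical monocytes, and 6.05 in nonclassical monocytes, under the floor. The first 4 arrays lay within 0.24 log2 units of each other and the nonclassical array stood alone. Against classical monocytes it was at least 4.87-fold lower (-2.28 with the nonclassical value set to the floor, -2.50 as deposited). Treml2 was the only member with a lower call between the monocyte arrays, the direction opposite to that of its chromosomal neighbour Treml4.

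Treml1 was flat. Its log2 value was 6.90 in nonclassical monocytes, 6.79 in CDP, 6.70 in classical monocytes, 6.65 in cMoP and 6.55 in MDP. All 5 values lay just above the floor, within 0.36 log2 units. No difference between any 2 arrays came near 1 log2 unit, and without replicates no order is read from these values. Of the megakaryocyte and platelet markers, 3 of the 6 measured lay under the floor on all arrays, among them Pf4 and Ppbp. Over all 19938 genes, 11058 were past the floor on at least 1 array. Gp9 lay just above it on all arrays but the classical one, up to 6.61 in CDP. Itga2b (6.33) and Gp5 (6.31) passed it in nonclassical monocytes alone. The 6 averaged between 4.94 and 5.16 on the 5 arrays.

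Both adaptor genes were above the floor on all arrays and highest in nonclassical monocytes. Tyrobp was at a log2 value of 13.23 in nonclassical monocytes, 12.98 in classical monocytes, 12.53 in CDP, 12.38 in cMoP and 12.00 in MDP. Both monocyte arrays lay above the 3 progenitor arrays, by 0.44 at the nearest pair, and this was the largest step between neighbours in the order. Tyrobp was 2.35-fold higher in nonclassical monocytes than in MDP (1.23), and none of the comparisons between successive populations was called.

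Hcst was at a log2 value of 10.40 in nonclassical monocytes, 9.61 in classical monocytes, 9.46 in cMoP, 8.56 in MDP and 8.48 in CDP. The values fall into a lower pair, MDP and CDP, a middle pair, cMoP and classical monocytes, and the nonclassical array. The step from cMoP down to MDP was 0.90 and that from nonclassical to classical monocytes 0.79, both short of a call. From CDP to nonclassical monocytes the difference was 1.92, or 3.78-fold. Between the committed progenitors neither adaptor was called: cMoP minus CDP was 0.98 for Hcst and -0.15 for Tyrobp. In CDP against MDP, where Trem3 was called lower, the differences of -0.08 for Hcst and 0.53 for Tyrobp were not called either.

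**Figure D1:**
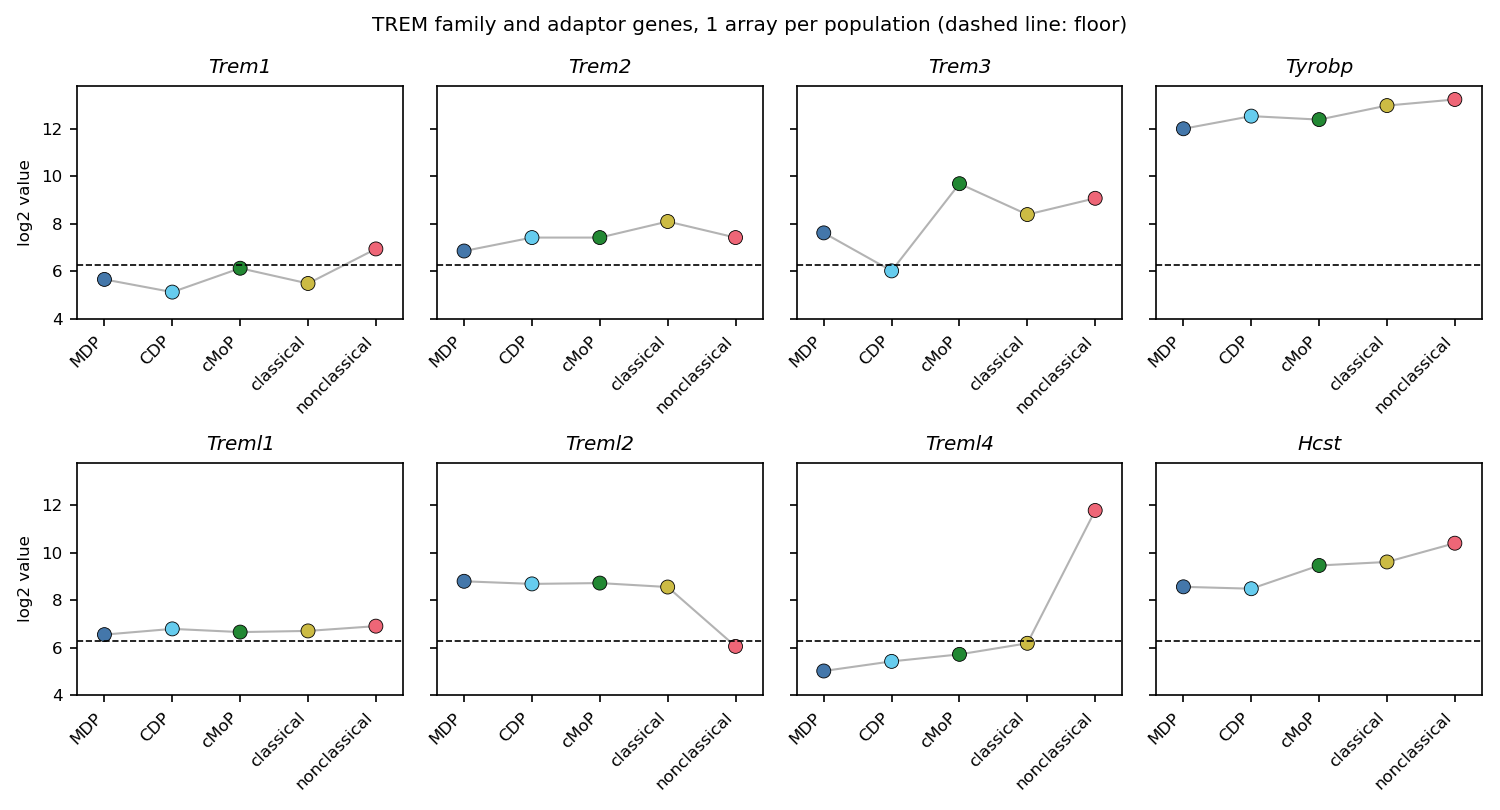
Deposited log2 value (y axis) of each member in the 5 populations (x axis), 1 point per array, with lines only to guide the eye and a dashed line at the floor of 6.27. Treml4 stands at 11.78 in nonclassical monocytes alone, Treml2 falls to 6.05 there, Trem3 runs from 6.01 in CDP to 9.68 in cMoP, and Tyrobp stays between 12.00 and 13.23.

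Counted by comparison, the members gave few calls. In CDP against MDP, 1 of the 6 members past the floor was lower, Trem3, where 1.06% of all genes past the floor were called lower, and 0 were higher (1.15% of all genes). In cMoP against MDP, 1 of 6 was higher, again Trem3 (1.44% of all genes), and 0 lower (1.4%). In cMoP against CDP, 1 of 6 was higher (3.23%) and 0 lower (2.2%). For these 2 comparisons the split over all genes depends on scaling: it was 147 higher and 143 lower for cMoP against MDP but 196 and 106 with each array centred on its median, and 337 and 230 for cMoP against CDP but 468 and 182 when centred. In classical monocytes against cMoP, 0 of 6 were higher (7.01%) and 1 lower (4.4%), once more Trem3. In nonclassical against classical monocytes all 8 members were past the floor, with Treml4 and Trem1 higher (3.55% of all genes) and Treml2 lower (9.82%). The split over all genes moved with scaling here too, from 373 higher and 1031 lower as deposited. It was 454 and 858 under quantile normalization, and 337 and 1218 when centred. Treml4 and Trem1 passed the floor only through the array in which they are high. With values under the floor set to the floor, Treml4 alone was higher, and its protein set the gate. By range over the 5 arrays as deposited, 7 of 8 members reached 1 log2 unit, as did 36.7% of all genes past the floor, and Treml1 did not. Trem1 reached it only through values under the floor, and with these set to the floor its range was 0.67. The share of all genes was not recomputed in this way. No member separated all 3 progenitor arrays from both monocyte arrays by 1 log2 unit, where 0.787% of all genes were higher in the progenitors and 2.38% in the monocytes by that rule.

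The medians of the members past the floor were 0.08 for CDP against MDP, 0.48 for cMoP against MDP, 0.02 for cMoP against CDP, 0.10 for classical monocytes against cMoP and 0.47 for nonclassical against classical monocytes. With values under the floor set to the floor, the last of these was 0.46. The medians over all genes in the same comparisons were -0.01, 0.00, 0.02, -0.01 and -0.09. These comparisons share arrays in pairs, so their values are not independent of each other. For scale, the absolute log2 difference of all genes past the floor had a 95th percentile of 0.76, 0.79, 1.04, 1.47 and 1.78 in the same order.

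**Figure D2:**
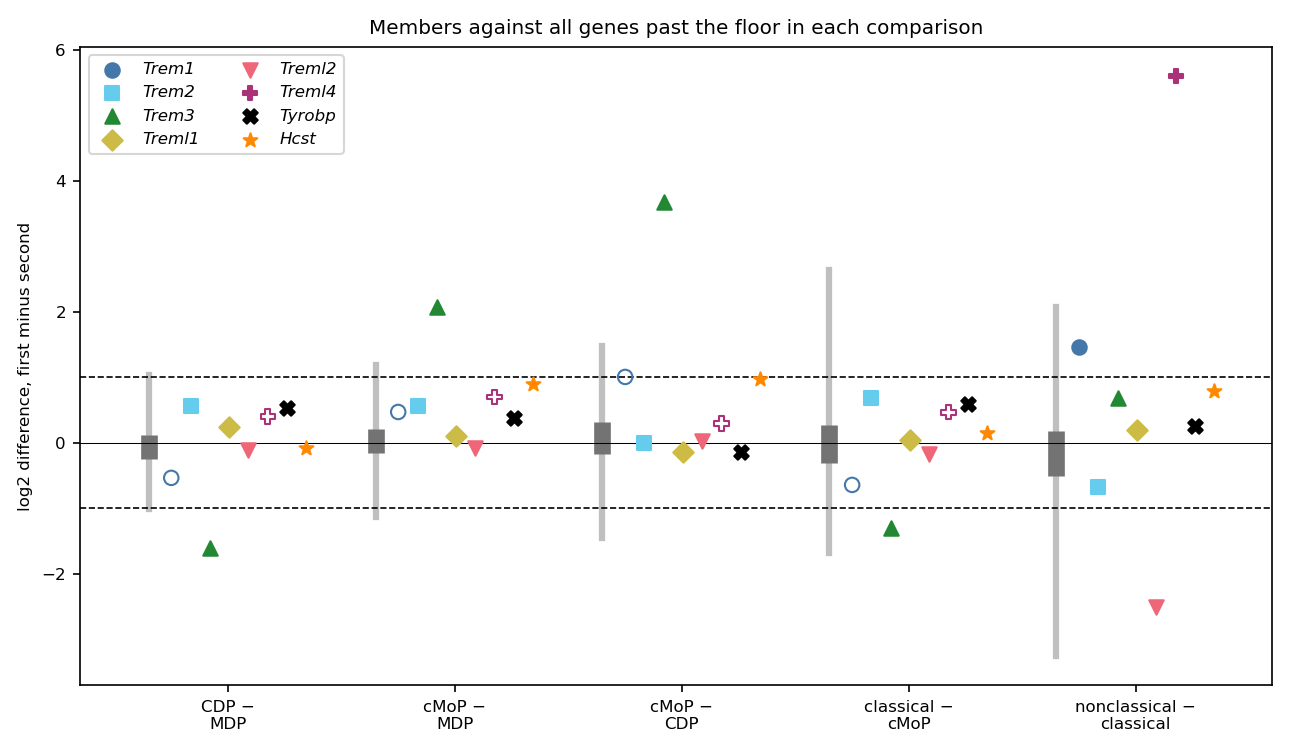
Log2 difference (y axis) of the 8 members in the 5 comparisons (x axis), 1 symbol per gene, as deposited, open where both arrays lie under the floor, with the call limits as dashed lines. Grey bars span the middle 98% (thin) and the middle 50% (thick) of all genes past the floor. Trem3 lies outside the thin bar in the 3 comparisons among progenitors, at -1.60, 2.07 and 3.67, and Treml4 at 5.60 lies above it between the monocyte arrays.

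The gene order on chromosome 17 set members with different patterns side by side. A further TREM-like gene that is no member, B430306N03Rik (synonym Treml6), lies between Treml2 and Trem2. Its log2 values were 6.68 in MDP, 8.36 in CDP, 7.79 in cMoP, 9.84 in classical and 9.47 in nonclassical monocytes, so that both monocyte arrays lay above all progenitors. Beyond Trem1 lie A530064D06Rik, which ran from 4.11 in MDP to 8.29 in classical monocytes, and 9830107B12Rik, under the floor on all arrays. Beyond Treml1 lie Nfya, a subunit of the CCAAT-binding factor NF-Y, and Oard1, whose ranges were 0.49 and 0.45. Treml4, Treml2 and Trem3 thus ranged over 6.76, 2.74 and 3.67 log2 units as deposited, with Nfya and Oard1 nearly level at 1 edge of the run. The lowest value of each of these 3 members lay under the floor. With it set to the floor the ranges were at least 45.6-fold, 5.76-fold and 10.7-fold. At the other edge A530064D06Rik was not level and ranged over 4.19 log2 units, also from a value under the floor. Around the adaptors, the ranges were 0.56 for Sdhaf1, 0.05 for Lrfn3, 0.75 for Nfkbid and 0.52 for Aplp1, against 1.23 for Tyrobp and 1.92 for Hcst. Lrfn3 lay under the floor on all arrays and Aplp1 on all but CDP (6.40), so their small ranges do not show steady expression.

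**Figure D3:**
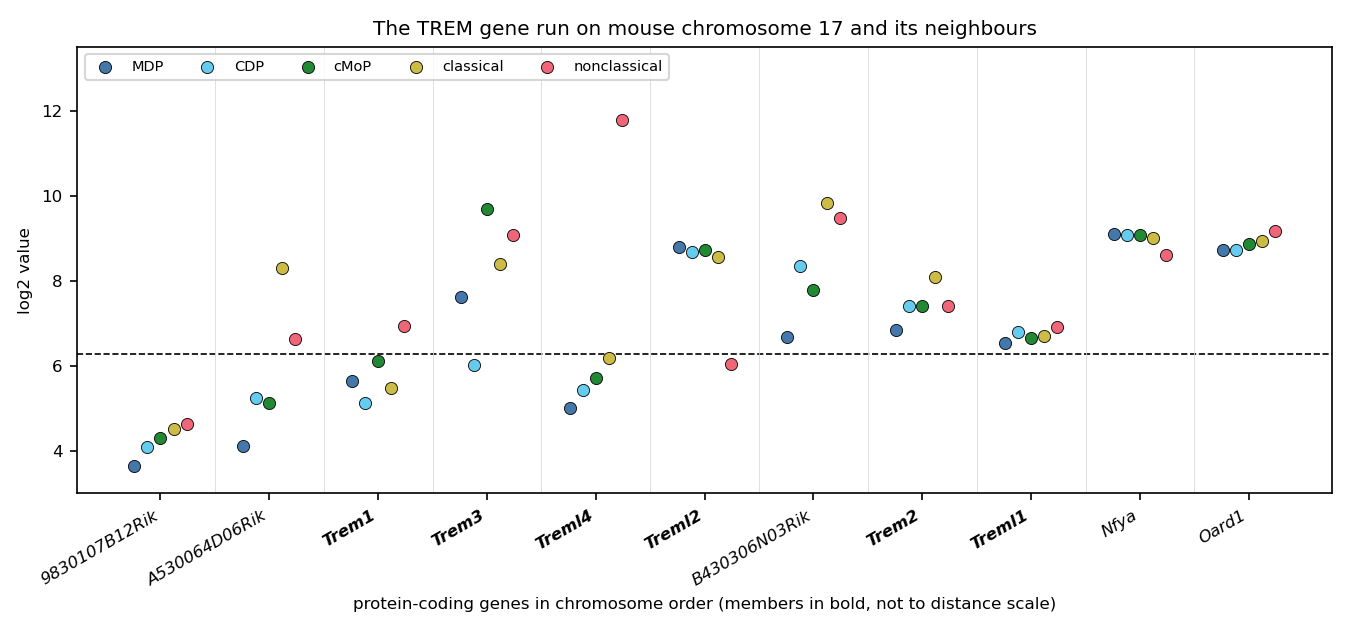
Log2 value (y axis) on each of the 5 arrays (colours) for the protein-coding genes of the TREM run and the 2 nearest on either side, in chromosome order (x axis, not to scale), with the floor dashed. Adjacent members differ in pattern: Treml4 is high in nonclassical monocytes alone, and Treml2 beside it is low there alone.

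The genes of most similar pattern were found as those with the smallest root mean square difference from a member, over the 5 arrays, after each gene was centred on its own mean. The search covered 11058 genes past the floor on at least 1 array. No nearest genes are named for Trem1, since 4 of its 5 values lie under the floor. With only 5 arrays, near matches can arise among unrelated genes. Treml4 was nearest to Ace (0.204 log2 units), the angiotensin-converting enzyme, followed by Cd36 (0.335), a scavenger receptor, Fcgr4 (0.393), an immunoglobulin G receptor, Lilra5 (0.436), and Fabp4 (0.442), a fatty acid-binding protein. Treml4 and most of these genes lie under the floor on the other arrays, so the distances describe mainly the nonclassical array. All 5 were high there, between 9.73 and 11.89, and at or below 6.57 on the others. Treml2 was nearest to Tfdp1 (0.0727), a dimer partner of E2F factors, Atad5 (0.0777), which unloads the replication clamp, Chaf1a (0.0793), a chromatin assembly factor, Plk4 (0.0893), a kinase of centriole duplication, and Brca1 (0.0944), a DNA repair protein. Like Treml2, each of these stood lowest in nonclassical monocytes, where Tfdp1 was at 8.02 and Brca1 at 5.31, and was nearly level on the other 4 arrays.

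Trem3 had no close match. Its nearest gene, Gstm1, a glutathione transferase, was at 0.562, followed by Gsr (0.626), glutathione reductase, Hnmt (0.629), which methylates histamine, Tmem38b (0.635) and Olr1 (0.667), an oxidized lipoprotein receptor. Hnmt lay above the floor in cMoP alone (6.46), and Olr1 only in cMoP (6.90) and nonclassical monocytes (7.13). The distances of these genes thus rest largely on dim values. Tyrobp was nearest to Dnajc4 (0.0486), Pias3 (0.0603), Jarid2 (0.0613), Mkrn1 (0.0614) and Slc12a9 (0.0719), and Hcst to Phyh (0.109), Hsd17b11 (0.115), Ebi3 (0.126), Ppm1h (0.164) and Fcgr2b (0.189), the inhibitory Fc receptor. Trem2 was nearest to Plekhf2 (0.0383), Septin10 (0.0450), Kif1b (0.0493), Cklf (0.0624) and Cib1 (0.0668). In Plekhf2 the CDP, cMoP and nonclassical values are tied at 8.83, as the same arrays are tied in Trem2, so this nearness rests in part on the ties in the table.

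**Figure D4:**
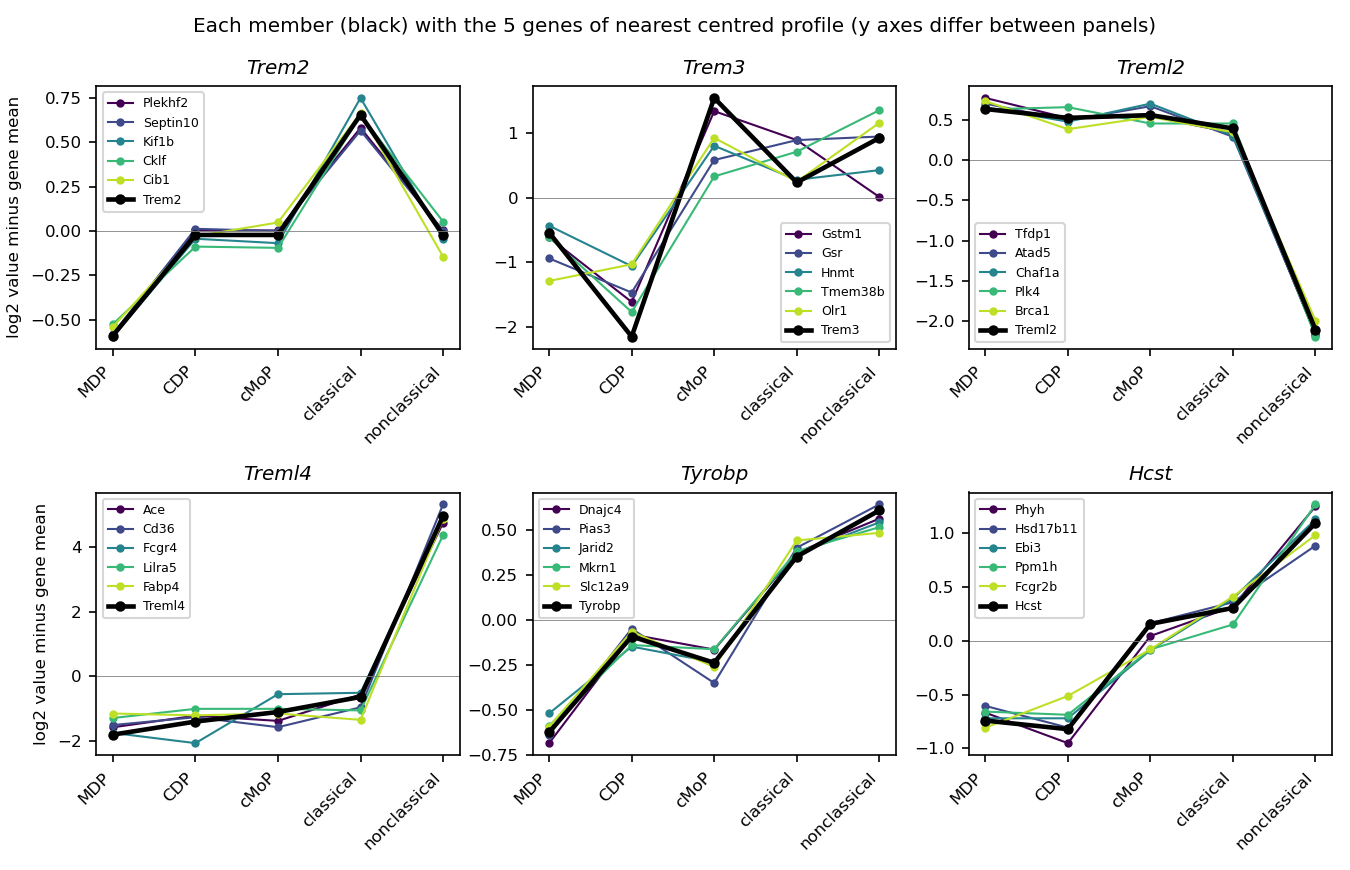
Log2 value minus the gene's own mean over the 5 arrays (y axis, scaled separately in each panel) by population (x axis), for 6 members (black) and their 5 nearest genes (colours). The lines of Treml2 and its nearest genes overlie each other within 0.0944 log2 units (root mean square), while those around Trem3 spread by 0.562 or more.

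Ligands of the receptors were measured as well. Pglyrp1, a peptidoglycan-binding protein and ligand of TREM-1, had log2 values of 7.24 in MDP, 6.93 in CDP, 8.53 in cMoP, 9.94 in classical and 12.65 in nonclassical monocytes. Like Trem1 it was highest in nonclassical monocytes. Apoe, the apolipoprotein bound by TREM-2, was between 7.95 and 8.26 in the progenitors, at 11.50 in classical and at 13.71 in nonclassical monocytes. Trem2 had its highest value in classical monocytes, by 0.68 over the nonclassical array and without a call, so no contrast with Apoe is read. Lgals3, the gene of galectin-3, another reported TREM-2 ligand, was highest in classical monocytes, at 11.84. Adam10 and Adam17, which shed TREM ectodomains, were called in no comparison. Of the 6 genes of this list past the floor, 3 were higher and 0 lower in classical monocytes than in cMoP (list median 0.99), where 7.01% of all genes were higher and 4.4% lower. In nonclassical against classical monocytes 2 were higher and 2 lower (-0.23), where the shares of all genes were 3.55% and 9.82%.

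Other receptors that use DAP12 or DAP10 moved apart from each other. Clec5a, a receptor for viral glycans that uses both chains, was at 9.19 in cMoP and 9.18 in classical monocytes but at 3.76 in nonclassical monocytes. It was higher in cMoP than in CDP by 2.78, as Trem3 was, and at least 7.54-fold lower in nonclassical than in classical monocytes, where Trem3 was not called. Pilrb1 and Pilrb2, activating paired receptors, were at 9.02 and 8.65 in classical and at 10.91 and 11.06 in nonclassical monocytes, above all progenitors. Siglech, a lectin of plasmacytoid dendritic cells, was at 7.68 in CDP and under the floor elsewhere. Of 12 measured genes of this list, 4 lay under the floor on every array. In nonclassical against classical monocytes 2 of 5 past the floor were higher and 1 lower, with a list median of 0.48, beside 3.55% and 9.82% of all genes. In cMoP against CDP the list median was -0.08, and of 7 genes 1 was higher and 1 lower, where the shares of all genes were 3.23% and 2.2%.

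Downstream of the chains, 6 of 22 ITAM signalling genes past the floor were higher in classical monocytes than in cMoP and 0 lower, with a list median of 0.38, where 7.01% of all genes were higher and 4.4% lower. The largest difference was that of Fgr, a Src family kinase, at least 17.7-fold, followed by Plcg2 (1.26), Lcp2 (1.17) and Malt1 (1.13). Syk, the kinase that binds DAP12, was at 8.17, 8.36 and 8.26 in MDP, CDP and cMoP and at 9.32 and 9.62 in classical and nonclassical monocytes. In nonclassical against classical monocytes 3 of 23 were higher, Pik3ap1 (3.34), Ptk2b (1.62) and Fgr (1.37), and 0 lower (median 0.02), beside 3.55% and 9.82% of all genes. Among the progenitors Fgr was the single gene of this list called, higher in CDP than in MDP by 1.60 and lower in cMoP than in CDP by a difference of -1.32. Both calls were lost with values under the floor set to the floor (0.62 and -0.62). Of the other ITAM chains, Fcer1g ran from 11.62 in MDP to 13.11 in nonclassical monocytes in the same order of arrays as Tyrobp. On all arrays 4 of the 7 chains lay under the floor. The only call among these chains was that of Cd79b, lower in classical monocytes than in cMoP (-1.09), beside 4.4% of all genes.

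Genes that restrain such signals showed calls in both directions. Of 13 past the floor, Pirb (3.51) and Sirpa (1.45), both inhibitory receptors, were higher in classical monocytes than in cMoP and Ubash3a was at least 3.39-fold lower, with a median of 0.59, beside 7.01% and 4.4% of all genes. In nonclassical against classical monocytes the ubiquitin ligase gene Cblb was higher (1.98) and the inhibitory lectin gene Siglece lower (-1.81) of 12 past the floor, beside 3.55% and 9.82%. Ptpn6, the gene of the phosphatase SHP-1, ran from 9.98 in MDP to 11.60 in nonclassical monocytes with no call between successive populations. Of 8 past the floor among the inflammatory genes that TREM-1 signalling is known to raise, Il1b (at least 9.11-fold), Nfkbiz (2.35) and Tnf (1.07) were higher in nonclassical than in classical monocytes and 0 were lower, against the same shares, while Il6, Cxcl2 and Ptgs2 were under the floor on all arrays. In classical monocytes against cMoP, where both Trem1 values lay under the floor, 5 of 7 were higher and 0 lower (median 1.26). The shares of all genes there were 7.01% and 4.4%, and the largest difference was that of Ccl3 (2.49). Setting values under the floor to the floor left 4 higher. In cMoP against MDP 0 of 6 were higher and 1 lower, Ccl3 (-1.45), beside 1.44% and 1.4% of all genes. Of 13 measured genes of lipid-associated macrophages, the state that depends on TREM-2 in tissue, 12 were past the floor between the monocyte arrays. There 3 were higher, among them Cd9 (2.50), and 3 lower, with Fabp5 at least 11.6-fold lower, beside 3.55% and 9.82% of all genes. With values under the floor set to the floor, 2 were higher and 3 lower. In classical monocytes against cMoP 5 of 11 were higher and 2 lower (median 0.91), beside 7.01% and 4.4% of all genes. In cMoP against MDP 4 of 11 were higher and 0 lower (median 0.71), beside 1.44% and 1.4%. Gpnmb, a defining gene of that state, was under the floor on all arrays.

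**Figure D5:**
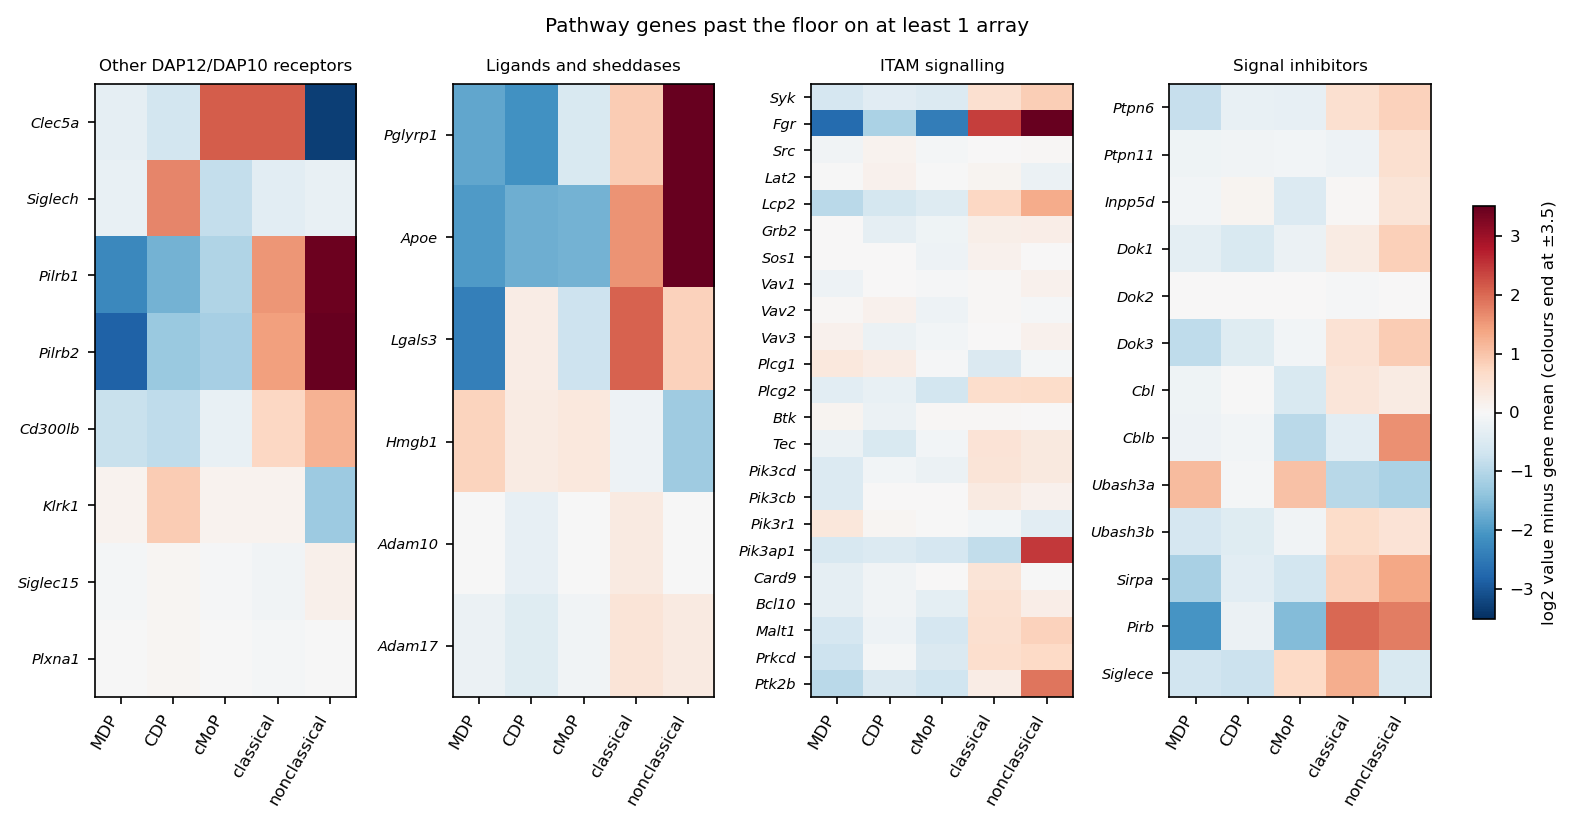
Log2 value minus the gene's mean over the 5 arrays (colour) for genes past the floor on at least 1 array, in 4 lists (panels, 1 row per gene), by population (columns). Pglyrp1, Apoe, Pilrb1 and Pilrb2 are highest in nonclassical monocytes, while Clec5a, at 3.76 there, is lowest.

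Markers of other cells were read beside these results. For scale, 11058 of all 19938 genes were past the floor on at least 1 array. Trem1 and Trem3 are also genes of neutrophils, and of 12 measured neutrophil markers some moved with Trem3 among the progenitors. In CDP against MDP 2 of 6 past the floor were lower, Cxcr2 (at least 2.43-fold) and Csf3r (-1.23), and S100a8 (1.03) was higher, beside 1.06% of all genes lower and 1.15% higher. In cMoP against MDP 3 of 7 were higher, S100a8 (at least 31.2-fold), Lcn2 (at least 6.52-fold) and S100a9 (1.72), beside 1.44%. In cMoP against CDP 4 of 7 were higher, S100a8 (4.09), Lcn2 (at least 6.52-fold), Csf3r (1.55) and Cxcr2 (1.51), beside 3.23%. With values under the floor set to the floor, S100a8 lost its call in CDP against MDP and Cxcr2 in cMoP against CDP. In classical monocytes against cMoP, where Trem3 was lower, 5 of 8 were higher and 1 lower (4 and 0 with values set to the floor), beside 7.01% and 4.4%. In nonclassical against classical monocytes, where Trem3 was not called, 4 of 7 were lower and 0 higher, beside 9.82% and 3.55%. The list averaged 6.08 in MDP, 6.02 in CDP, 6.86 in cMoP, 7.90 in classical and 6.22 in nonclassical monocytes. Ltf, Mmp9, Retnlg and Ly6g were under the floor on all arrays. S100a8, S100a9 and Lcn2 are expressed by monocytes as well. On the nonclassical array Csf3r was at its highest, 10.31, S100a8 and S100a9 were at 7.86 and 8.18, and Lcn2 was at 5.91, under the floor. The part of other cells in the Trem3 difference was not tested. Of 10 macrophage markers, read beside Trem2, 8 were under the floor on all arrays, among them C1qa, C1qb, C1qc, Mertk and Timd4, and the list averaged between 5.49 and 5.92, while Adgre1 (F4/80), which monocytes also carry, was at 6.43 in MDP and at 11.25 in nonclassical monocytes. Cd163 was at 6.68 in MDP and 7.26 in CDP and under the floor elsewhere. As deposited Cd163 was lower in cMoP than in CDP (-1.26), beside 2.2% of all genes. That call was lost with values set to the floor. Of 9 B cell markers, read beside Treml2, 6 were under the floor on all arrays, among them Ms4a1, Pax5 and Cd79a. The list means lay between 5.63 and 5.92. Cd79b, however, was above the floor on all 5 arrays, between 8.41 and 9.50, and Vpreb1 also was, between 6.45 and 6.98. Cd79b was lower in classical monocytes than in cMoP (-1.09), beside 4.4% of all genes. Of 9 T and NK cell markers, read beside Hcst, 7 were under the floor on all arrays, with list means of at most 5.09, and Cd247 and Prf1 were above it without a call. Among dendritic cell markers 5 of 8 past the floor were higher in CDP than in MDP, among them Clec9a (2.56) and Cd209a (2.05), beside 1.15% of all genes, on the array where Trem3 was lowest. With values set to the floor, 4 of 8 were higher.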

How the data were processed

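RNA of 5 sorted mouse marrow populations was measured on 1 array each. Per the labels' protocols, RNA was extracted with an RNAqueous-Micro kit and labelled with the Nugen Encore Biotin kit. The authors deposited 1 log2 value for each of 35556 probe sets and array. That the scale is log2 was inferred from the span of values, 1.59 to 14.24. How background was corrected and how arrays were normalized and summarized is, in the sources used here, not given. Another log base would change every fold.

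Groups were taken from sample titles. Gene symbols come from the platform annotation: 21789 probe sets carry 1 symbol, 1621 several and 12146 none. Where a gene had several, the brightest on average stood for it. Calls need 1 log2 unit and the floor of 6.27. The calling code, not the biology, was checked on simulated data with known changes. Precision is limited by the number of arrays: with 1 per population there was no test. Members, lists and thresholds were chosen with earlier results of these data known. Named genes are the 8 members, up to 4 called genes of a list with the largest differences per comparison, marker genes, the 5 nearest patterns (left out for Trem1, which is mostly under the floor) and the flanking genes. Syk, Spi1, Fcer1g, Ptpn6, Adam10, Adam17, Gpnmb and other genes named without a call were chosen after their values were seen. A RefSeq gene table (GRCm38.p6) gave gene order, and its promoter table the sequences. Alternatives were quantile normalization, median centring, averaging all probe sets per gene, a floor at the upper quartile (7.93), no floor and, added after seeing the data, values under the floor set to it. Python 3.11.15, pandas 2.3.3, numpy 2.4.6 and matplotlib 3.10.9 were used.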

Additional observations from a re-analysis of the deposited data

How the results depend on the processing

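The counts of called members kept their size under quantile normalization, in both directions of all 6 comparisons. Averaging all probe sets per gene cannot change a member, since each has 1, and so bears on no member's value. With a floor at the upper quartile, the count of members lower in CDP than in MDP was 0 (main 1, Trem3), and the count higher in nonclassical than in classical monocytes was 1 (main 2), Trem1 being lost. With values under the floor set to the floor, chosen after seeing the data, that count was also 1, again without Trem1 (0.67), and the other 11 counts were as before. With each array centred on its median, the counts of members higher in cMoP than in MDP and in cMoP than in CDP were each 2 (main 1), because Hcst reached 1.01 and 1.09. Without a floor, the count higher in cMoP than in CDP was 2, Trem1 being added. No member's called difference changed sign under the 2 scalings. Centring moved the median of all genes by up to 0.113 log2 units in a comparison. The largest move of a member's difference under quantile normalization was that of Hcst between the monocyte arrays, from 0.79 to 0.996, short of a call. Over all genes, the floor at the upper quartile left 61 lower in CDP than in MDP (110 with the median floor), 73 lower in cMoP than in MDP (143) and 149 lower in cMoP than in CDP (230). The alternative of a member's further probe sets gave no value. No paired analysis was possible because each population has 1 array. Trem1, Treml4 outside nonclassical monocytes, and Treml1 lie near or under the floor, where dim signal limits what can be read.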
